A study of Mus musculus with 16 samples.

Results

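The early dark phase difference in hypothalamic RNA between mice without ASIC1a and wild type (WT) mice was described from 8 of the 16 libraries of the series, chosen by their titles: 4 from ASIC1a-/- and 4 from WT mice at ZT13. ZT counts the hours since lights on, so that ZT13 lay 1 h into the dark phase of a 12 h light and 12 h dark cycle. All 8 animals were males aged 3 months on a C57BL/6 background, and each library came from the whole hypothalamus of another mouse. ASIC1a was deleted in all tissues, both genotypes came from the breeding of heterozygous mice, and mice of both genotypes were killed with CO2 before dissection. The other 8 libraries, of the same genotypes at ZT1 and from other mice, shared the estimate of the spread and served to ask whether a difference at ZT13 differed from that at ZT1. Levels are given as CPM, the reads of a gene per 1000000 reads of its library. Of 55401 genes in the files, 15539 passed 1 CPM in some ZT13 library and were tested.

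ASIC1a is a sodium channel of neurons that opens when the fluid outside the cell becomes acid, and its opening excites the cell and lets some calcium in. Immediate early genes such as *Fos*, *Egr1* and *Nr4a1* encode transcription factors whose RNA appears within minutes of neuronal excitation, growth factor or hormone signals, without new protein synthesis, and is short-lived. In the hypothalamus, which sets body temperature, feeding, hormone release and the daily rhythm, *Fos* RNA and protein are widely used as marks of recently active neurons.

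At ZT13, 13 genes were higher (0.0837% of the genes tested) and 3 were lower (0.0193%) in ASIC1a-/- than in WT hypothalamus, by edgeR's quasi-likelihood test at an adjusted p under 0.05. Among the 13 were 3 members of the AP-1 family (*Fos*, *Fosb* and *Junb*), the zinc finger factors *Egr1* and *Egr2*, the orphan nuclear receptors *Nr4a1* and *Nr4a3*, and the early response gene *Btg2*. The other 5 were *Sgk1*, *Ddit4*, *Arl4d*, *Cers5* and the non-coding gene *1700016P03Rik*. The 3 lower genes were *Asic1* itself, *Krt90* and *Racgap1*, all on chromosome 15. The difference was narrow: the median log2 fold change of all genes was 0.0015, and the central 90% of genes lay between -0.15 and 0.18. Without a correction for the number of tests, 329 genes were higher and 265 lower at a p under 0.05. DESeq2 called 24 genes higher and 6 lower, all 16 genes above among them. In all, 207 genes (1.33%) had every ASIC1a-/- library above every WT library, and 190 genes (1.22%) had every one below.

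**Figure D1:**
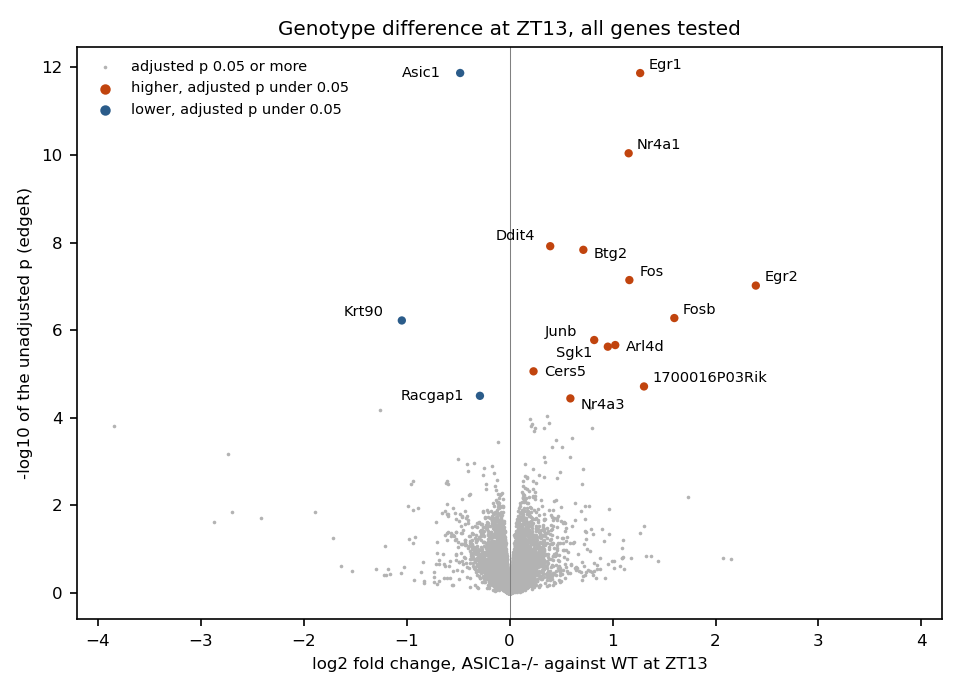
Log2 fold change (ASIC1a-/- against WT at ZT13, horizontal axis) and −log10 of the unadjusted edgeR p (vertical axis) of every gene tested; 7 genes beyond 4.2 on either side, none of them at an adjusted p under 0.05, are not drawn. The 13 genes that were higher (orange) and the 3 that were lower (blue) are named.

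The groups were checked first at the targeted gene. *Asic1* (chromosome 15, 99670368 to 99701130, plus strand, GRCm38) had 97.8, 97.1, 99.4 and 101.9 CPM in the 4 WT libraries and 71.1, 69.9, 71.9 and 71.0 CPM in the 4 ASIC1a-/- libraries. All 4 ASIC1a-/- libraries were below all WT libraries, with a log2 fold change of -0.48 ± 0.03 (SE, n = 4 against 4; edgeR adjusted p = 1.04e-08). The gene also encodes transcripts other than ASIC1a, and the mean transcript length that RSEM gave it was 3060 ± 85.8 bases in WT and 1819 ± 7.11 bases in ASIC1a-/- hypothalamus (SD, n = 4; exact permutation test, two-sided, p = 0.0286, the smallest that 4 against 4 allows). On the TPM scale, which divides by that length, *Asic1* went the other way, from 66.0 ± 4.51 to 82.7 ± 1.21 TPM (SD, n = 4).

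None of the related acid-sensing channels was called. *Asic2*, the main partner subunit of ASIC1a in the brain, had 67.9 ± 2.76 CPM in WT and 67.2 ± 1.73 CPM in ASIC1a-/- libraries (SD, n = 4). *Asic4* had 8.89 ± 0.624 and 7.87 ± 0.958 CPM, and the epithelial sodium channel subunit *Scnn1a* 3.70 ± 0.426 and 3.56 ± 0.475 CPM, each with groups that overlapped. *Asic3*, *Asic5*, *Scnn1b* and *Scnn1g* lay under the filter on low counts. Of 28 proton-sensing receptors, pH-sensitive potassium channels, acid-base transporters and carbonic anhydrases tested, 0 were called by edgeR at an adjusted p under 0.05, 1 at an unadjusted p under 0.05, and the median log2 fold change was 0.02.

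The upstream regions of the genes that were higher are shown because many immediate early genes are known targets of CREB, a factor that calcium and cyclic AMP signals switch on. In the RefSeq promoter table (GRCm38.p6; 250 bases before to 50 after each start site), 11 of the 13 genes were found and searched on both strands for the CREB core site TGACG, also read as CGTCA. The rest, *1700016P03Rik* among them, were not searched for any motif, and neither were bases outside this window. A core site was present in 9 of the 11, *Fos*, *Fosb*, *Junb*, *Egr2*, *Nr4a1*, *Nr4a3*, *Btg2*, *Sgk1* and *Arl4d*, beside 34.0% of the 11498 tested genes with a listed promoter. The full palindrome TGACGTCA, which contains 2 overlapping core sites, was found in *Btg2* and *Arl4d*, beside 3.48% of the tested genes. The CArG box, bound by serum response factor, was found in *Egr2* (1.62% of the tested genes), the E-box CACGTG of the clock factors in *Egr2* and *Sgk1* (11.4%), and the AP-1 site TGANTCA in 0 of the 11 (6.08%). A match is a description of the letters and not a bound site. Genes have 1 or several listed promoters, and a gene was counted when any of them held the motif.

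The stretches that end at the base before the start site are printed 5′ to 3′ for 6 of these genes, with the CREB core sites, the full palindromes and the CArG box in capitals. Their positions are chr12:85473740-85473889 (plus) for *Fos*, chr7:19310046-19310145 (minus) for *Fosb*, chr15:101266746-101266845 (plus) for *Nr4a1*, chr10:67537719-67537868 (plus) for *Egr2*, chr1:134079156-134079355 (minus) for *Btg2* and chr11:101665481-101665540 (plus) for *Arl4d*.
Fos: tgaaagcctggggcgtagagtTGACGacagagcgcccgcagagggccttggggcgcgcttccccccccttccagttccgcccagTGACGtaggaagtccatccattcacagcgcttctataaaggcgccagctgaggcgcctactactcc
Fosb: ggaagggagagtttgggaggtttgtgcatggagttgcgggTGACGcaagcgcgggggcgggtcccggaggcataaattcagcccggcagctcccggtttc
Nr4a1: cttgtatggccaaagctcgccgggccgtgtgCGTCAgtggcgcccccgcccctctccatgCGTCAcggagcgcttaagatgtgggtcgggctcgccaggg
Egr2: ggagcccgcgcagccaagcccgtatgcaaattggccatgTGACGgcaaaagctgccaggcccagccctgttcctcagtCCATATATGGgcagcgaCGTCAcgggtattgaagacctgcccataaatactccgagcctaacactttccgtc
Btg2: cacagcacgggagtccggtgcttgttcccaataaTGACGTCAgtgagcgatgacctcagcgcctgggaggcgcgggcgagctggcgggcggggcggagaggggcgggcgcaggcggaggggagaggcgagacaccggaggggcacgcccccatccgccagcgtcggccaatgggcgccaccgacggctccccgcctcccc
Arl4d: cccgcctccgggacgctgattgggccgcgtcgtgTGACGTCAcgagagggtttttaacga

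Among the AP-1 genes, whose products pair as FOS and JUN proteins and bind DNA together, 3 of 7 tested members were higher and 0 lower. *Fos* had 13.6, 12.5, 8.90 and 17.3 CPM in the WT libraries and 31.2, 29.6, 27.0 and 29.4 CPM in the ASIC1a-/- libraries. The WT libraries spread over a wider range than the ASIC1a-/- libraries, and the groups did not overlap (log2 fold change 1.16 ± 0.13, SE; edgeR adjusted p = 0.000185). *Fosb*, a FOS protein gene with a shorter and longer-lived splice form, had 1.8, 2.56, 1.28 and 1.55 CPM in WT and 7.10, 4.46, 5.23 and 4.99 CPM in ASIC1a-/- libraries. The lowest ASIC1a-/- library was above the highest WT library (log2 fold change 1.60 ± 0.21; edgeR adjusted p = 0.00102). *Junb*, the JUN family member that dampens JUN activity, had 7.22, 7.24, 6.21 and 7.82 CPM in WT and 15.1, 12.8, 12.2 and 10.2 CPM in ASIC1a-/- libraries, again without overlap (0.82 ± 0.12; edgeR adjusted p = 0.00259). The other 4 members were not called: *Fosl2* had a log2 fold change of 0.34 ± 0.09, *Atf3* of 0.26 ± 0.20, *Jun* of 0.11 ± 0.08 and *Jund* of -0.0038 ± 0.07 (SE), each with overlapping groups.

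In the group of EGR zinc finger factors, NR4A orphan nuclear receptors and the NAB proteins that repress EGR factors, 4 of 9 tested members were higher, 0 were lower and all 9 log2 fold changes were above 0, with a median of 0.77. *Egr1*, widely used as a mark of neuronal activity beside *Fos*, had 26.9, 29.2, 23.4 and 26.0 CPM in WT and 71.1, 56.9, 61.8 and 64.1 CPM in ASIC1a-/- libraries. Every ASIC1a-/- library had at least 56.9 CPM and no WT library more than 29.2 CPM (log2 fold change 1.27 ± 0.07, SE; edgeR adjusted p = 1.04e-08). *Egr2*, the family member known best from myelinating glia and from neurons after strong activity, had 0.228, 0.426, 0.170 and 0.527 CPM in WT and 2.04, 1.55, 1.98 and 1.58 CPM in ASIC1a-/- libraries. This was the largest log2 fold change among the 16 genes called, 2.39 ± 0.28, from a level under 1 CPM in every WT library (edgeR adjusted p = 0.000212). *Egr3* had 3.48, 2.61, 2.55 and 2.27 CPM against 5.79, 3.96, 4.29 and 4.74 CPM, without overlap, and its edgeR adjusted p of 0.0557 lay just outside the threshold (0.78 ± 0.15). *Egr4* had a log2 fold change of 0.77 ± 0.27 with overlapping groups.

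*Nr4a1*, an orphan receptor induced by calcium and stress signals, had 9.13, 9.29, 9.72 and 12.2 CPM in WT and 23.2, 24.9, 21 and 20.7 CPM in ASIC1a-/- libraries. The groups were far apart relative to their spread (log2 fold change 1.16 ± 0.09; edgeR adjusted p = 4.71e-07). *Nr4a3* had 9.67, 10.6, 7.12 and 11.2 CPM in WT, and 14.5, 14.4, 14.6 and 14.6 CPM in ASIC1a-/- libraries, which were close to each other (0.59 ± 0.11; edgeR adjusted p = 0.0349). The call was lost without any 1 of the ASIC1a-/- libraries, and without WT replicate 1 or 2. *Nr4a2*, known for its role in dopamine neurons, was not called (0.28 ± 0.12, SE), and neither were the corepressors *Nab1* (0.09 ± 0.05) and *Nab2* (0.04 ± 0.07).

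**Figure D2:**
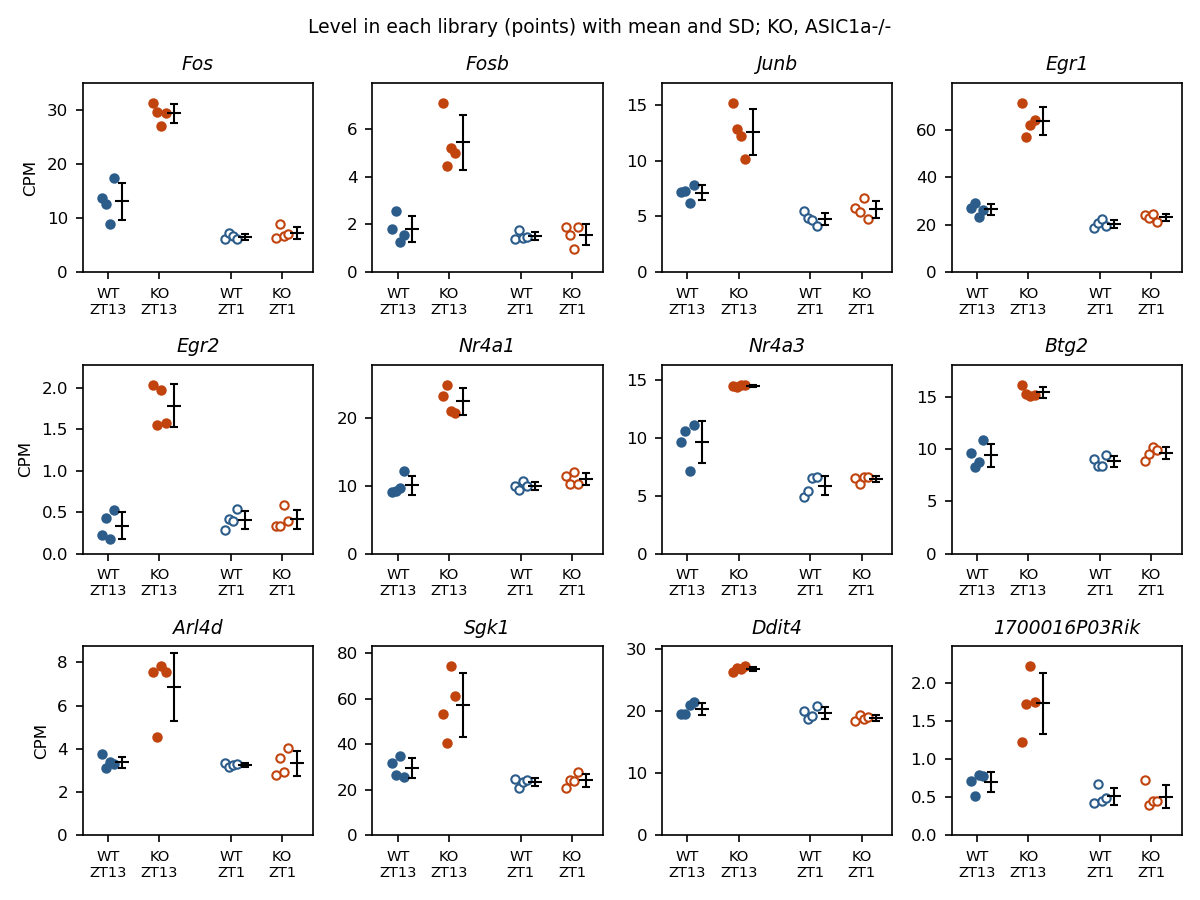
CPM (vertical axes, from 0) of 12 of the 13 higher genes in every library, with the mean and SD of each group of 4; filled points are ZT13, open points ZT1, blue WT and orange ASIC1a-/- (KO). In all 12 panels the 4 ASIC1a-/- libraries at ZT13 lie above the 4 WT libraries at ZT13.

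The wider list of rapid early response genes held fewer called members. Of 35 tested, *Btg2*, which slows the cell cycle and promotes mRNA deadenylation, was the one called by edgeR. It had 9.67, 8.29, 8.82 and 10.9 CPM in WT and 16.2, 15.3, 15.1 and 15.2 CPM in ASIC1a-/- libraries, with no overlap (0.72 ± 0.07, SE; edgeR adjusted p = 4.52e-05). In 10 of the 35 (28.6%, against 1.33% of all genes), *Btg2* among them, all ASIC1a-/- libraries lay above all WT libraries. They also included *Gem*, a small GTPase that inhibits calcium channels (0.80 ± 0.17), *Trib1*, a pseudokinase (0.36 ± 0.07), *Tiparp*, a mono-ADP-ribosyltransferase (0.24 ± 0.05), and *Plk2*, a kinase induced by synaptic activity (0.21 ± 0.04). The edgeR adjusted p of these 4 was between 0.0759 and 0.0986, and DESeq2, run as an alternative, called all 4.

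Over the AP-1 list, the EGR and NR4A list and the other rapid early response genes together, 51 genes were tested, 8 were called and 42 had a log2 fold change above 0, where 51.3% of all genes had. The groups did not overlap for 19 of the 51 (37.3%), all above WT, against the 1.33% of all genes given above. The called members all belong to the study's heat map, which was chosen on these same samples. The lists themselves were chosen with earlier results of these data known. These shares, and those of the other gene lists, are therefore a description and no independent evidence of enrichment. The median log2 fold change of the 51 was 0.21, and that of the 43 members that were not called was 0.13. The median deviation of the 51 from their means over the 8 libraries ran from -0.14 to -0.05 (log2) in the WT libraries and from 0.07 to 0.18 in the ASIC1a-/- libraries. Replicate 3 was the lowest of the WT and replicate 2 the highest of the ASIC1a-/- libraries.

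Genes that are induced in neurons by activity, or later than the early factors, were mostly not called. Of 28 tested, 1 was higher, 17 were above 0, 11 were below 0 and the median log2 fold change was 0.06. At an unadjusted p under 0.05 there were 8. The groups did not overlap for 5 of the 28 (17.9%), all above WT, where 1.33% of all genes lay above WT without overlap. *Arc*, whose protein acts at synapses, had 14.7, 12.6, 12.6 and 14.7 CPM in WT and 16.4, 15.7, 15.2 and 17.8 CPM in ASIC1a-/- libraries. The groups did not overlap, but the difference was small and did not pass the test (0.25 ± 0.07; edgeR adjusted p = 0.764). The neurotrophin gene *Bdnf* had a log2 fold change of 0.14 ± 0.05, also without overlap and without passing the test. *Npas4*, an early factor restricted to neurons, had 5.28, 4.2, 5.36 and 5.54 CPM against 4.84, 5.99, 6.20 and 4.58 CPM, so that the groups overlapped (0.05 ± 0.14). *Npas4* was chosen after its values were seen.

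The called member of that list was *1700016P03Rik* (chromosome 11, 75172560 to 75177633, plus strand, GRCm38), a non-coding transcript that GENCODE marks as a host of small RNAs. It had 0.713, 0.511, 0.794 and 0.776 CPM in WT and 1.22, 1.72, 2.21 and 1.75 CPM in ASIC1a-/- libraries, low in all 8 but without overlap (1.31 ± 0.23, SE; edgeR adjusted p = 0.0213). The call was lost on leaving out any 1 of 5 libraries, ASIC1a-/- replicate 3 or 4 or WT replicate 1, 2 or 3. The miR-212 and miR-132 hairpins lie within it, in that order from its start, and their 3p arms, at chr11:75173443-75173464 and chr11:75173723-75173744 (plus), share the seed AACAGUC, bases 2 to 8, shown in capitals in the RefSeq sequences below. Mature miRNAs were not measured in these libraries.
mmu-miR-212-3p: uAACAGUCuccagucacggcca
mmu-miR-132-3p: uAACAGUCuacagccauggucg

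The genes that restrain the early response were examined next. Of 16 tested dual-specificity phosphatases, Sprouty and SPRED proteins, which switch off MAP kinase signalling, 0 were called by edgeR at an adjusted p under 0.05 and 6 at an unadjusted p under 0.05, and 12 were above 0. *Dusp4* had a log2 fold change of 0.45 ± 0.10, *Dusp1* of 0.33 ± 0.08, *Dusp6* of 0.23 ± 0.07 and *Spry4* of 0.21 ± 0.04 (SE). Of these 4, *Dusp4* and *Spry4* had no overlap between the groups. Among 26 regulators of CREB, 0 were called by edgeR (3 at an unadjusted p under 0.05), with a median log2 fold change of -0.0014. The members with the smallest p were *Sik1*, the salt-inducible kinase that CREB induces and that inhibits the CREB coactivators (19.8, 20.4, 19.5 and 25.5 CPM against 27.8, 27.9, 26.8 and 28.8 CPM; 0.39 ± 0.08; edgeR adjusted p = 0.0958), and *Creb5* (0.34 ± 0.09). DESeq2 called *Sik1* alone of the 26, and 0 of the 16 phosphatases, Sprouty and SPRED genes.

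A further set of called genes is known to respond to glucocorticoids, and 3 of 29 tested members of that list were higher: *Sgk1*, *Ddit4* and *Arl4d*. All 3 belong to the study's heat map, which was chosen on these same samples, so their number in this list is no independent evidence. *Sgk1*, a kinase of the Akt family that regulates ion channels and transporters, had 31.8, 26.4, 34.9 and 25.6 CPM in WT and 53.2, 40.5, 74.3 and 61.3 CPM in ASIC1a-/- libraries. Both groups spread widely and did not overlap (0.95 ± 0.14; edgeR adjusted p = 0.00306). *Ddit4*, also called REDD1, which inhibits mTOR complex 1, had 19.5, 19.6, 21 and 21.5 CPM in WT and 26.3, 26.9, 26.7 and 27.3 CPM in ASIC1a-/- libraries. The difference was modest, but the libraries of each group were close to each other (0.39 ± 0.04; edgeR adjusted p = 4.52e-05). *Arl4d*, a small GTPase of the ARF family, had 3.74, 3.12, 3.37 and 3.27 CPM in WT and 7.56, 4.52, 7.82 and 7.57 CPM in ASIC1a-/- libraries, in which replicate 2 stood below the other 3 (1.03 ± 0.15; edgeR adjusted p = 0.00306).

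The median log2 fold change of the 29 was 0.03, with 21 above 0 and 8 below, and the values ran from -0.50 to 1.03. The groups did not overlap for 7 members above WT (24.1%, where 1.33% of all genes did so) and for 1 below. *Tsc22d3*, which encodes the glucocorticoid-induced leucine zipper, had 105.3, 97.0, 96.6 and 97.6 CPM against 112, 112, 113 and 119 CPM (0.20 ± 0.04; edgeR adjusted p = 0.0819), and *Nfkbia*, an inhibitor of NF-kB, had a log2 fold change of 0.33 ± 0.07. Neither passed the test, although their groups did not overlap. DESeq2 called both, and 6 of the 29 in all.

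Of 45 tested genes of the Akt and mTOR pathway, which couples growth factor and nutrient signals to protein synthesis, only *Ddit4* and *Sgk1* were called. The median of the list was 0.0045, with 24 members above 0 and 21 below. The groups did not overlap for 4 members (8.89%), all above WT, where 1.33% of all genes did so. The called *Ddit4* and *Sgk1* were among these 4, as was *Irs2* (0.07 ± 0.03). Of 17 small GTPases related to ARL4 and to GEM, *Arl4d* was the only one called and 14 were above 0. In this list 5 had no overlap, all above WT (29.4%, against 1.33% of all genes). *Rrad*, like *Gem* an inhibitor of calcium channels, had 7.67, 9.0, 7.20 and 9.09 CPM against 11.3, 10.6, 9.66 and 12.4 CPM (0.41 ± 0.10; edgeR adjusted p = 0.22, and called by DESeq2), and *Rnd3*, which antagonizes RhoA, had a log2 fold change of 0.10 ± 0.04.

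**Figure D3:**
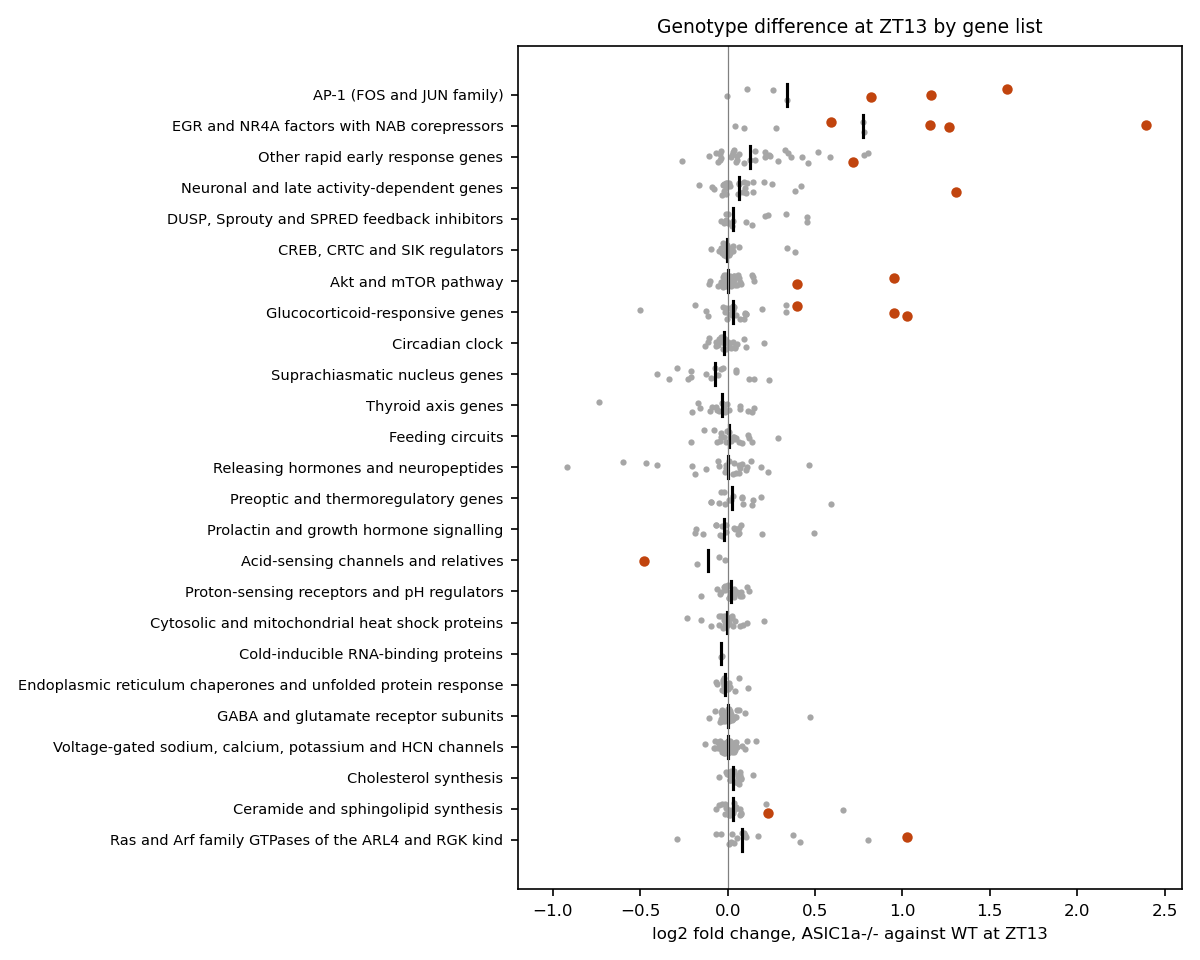
Log2 fold change (ASIC1a-/- against WT at ZT13, horizontal axis) of the tested members of each gene list (rows); grey points are genes that were not called, orange points genes at an adjusted p under 0.05, and black bars list medians. *Prl* and *Gh* lie below the plotted range. The bars lie farthest to the right for the EGR and NR4A list (0.77) and the AP-1 list (0.34).

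Genes of the hypothalamic output systems were examined as lists, and none of them was called by edgeR or by DESeq2. Of 27 tested clock genes, 0 were called by edgeR at an adjusted p under 0.05 and 2 at an unadjusted p under 0.05, and the median log2 fold change was -0.02. *Dbp*, an output of the clock, had a log2 fold change of -0.13 ± 0.05, *Nr1d1*, the repressor REV-ERB alpha, of -0.10 ± 0.05 and *Per2*, a core repressor, of -0.11 ± 0.07 (SE). Genes typical of the suprachiasmatic nucleus, the seat of the central clock, had 12 of 17 members below 0 and a median of -0.08, with 0 called by edgeR (2 at an unadjusted p under 0.05) and 0 without overlap.

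Among 20 tested genes of the thyroid axis, 0 were called by edgeR (2 at an unadjusted p under 0.05), 14 were below 0 and the median was -0.03. *Trh*, which encodes the peptide that starts the thyroid axis, had 77.9, 85.3, 99.3 and 110 CPM in WT and 81.6, 71.9, 85.1 and 84.0 CPM in ASIC1a-/- libraries. The groups overlapped and the difference did not pass the test (-0.21 ± 0.10; edgeR adjusted p = 1). The thyroid hormone transporter gene *Slco1c1*, found in vessels and astrocytes, had a log2 fold change of 0.15 ± 0.04 and the receptor gene *Thrb* of -0.10 ± 0.04, each without overlap. *Tshb* and *Dio3* lay under the filter.

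Of 28 tested releasing hormones and neuropeptides, 0 were called by edgeR and 9 had an unadjusted p under 0.05. In this list 3 had no overlap, all below WT: *Oxt* and the pituitary hormones *Prl* and *Gh*, described below. Of all genes, 1.22% lay below WT without overlap. Oxytocin (*Oxt*) had 12.1, 11.9, 17.1 and 15.9 CPM in WT and 6.77, 10.9, 10.5 and 9.48 CPM in ASIC1a-/- libraries (-0.60 ± 0.22, SE; edgeR adjusted p = 1). Vasopressin (*Avp*), made by neighbouring neurons, had 44.8, 38.7, 43.6 and 37.5 CPM against 24.7, 44.8, 31.7 and 23.1 CPM, and the groups overlapped (-0.41 ± 0.17). *Crh*, the releasing hormone of the stress axis, had 1.28, 1.62, 1.16 and 1.39 CPM against 1.25, 1.95, 1.88 and 2.44 CPM (0.46 ± 0.18). None of these 3 passed the test.

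The feeding circuits had 0 of 23 members called by edgeR (1 at an unadjusted p under 0.05), that one being the orexin receptor *Hcrtr1* (0.29 ± 0.08), and the preoptic and thermoregulatory genes 0 of 16 (2 at an unadjusted p under 0.05). The cold-inducible RNA-binding proteins, whose RNA follows body temperature in other tissues, were nearly equal: *Cirbp* had 72.4 ± 5.45 CPM in WT and 70.4 ± 4.8 CPM in ASIC1a-/- libraries, and *Rbm3* 95.8 ± 5.37 and 93.6 ± 5.58 CPM (SD, n = 4). Of 27 heat shock proteins, 0 were called by edgeR and 0 had an unadjusted p under 0.05, and the same was true of 21 chaperones and unfolded protein response genes and of 26 genes of cholesterol synthesis, with medians between -0.01 and 0.03. In the last list 23 of 26 members were above 0. Of 40 GABA and glutamate receptor subunits and 55 voltage-gated channels, 0 were called by edgeR and 1 each had an unadjusted p under 0.05, and their medians were 0.0038 and -0.00045.

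The remaining called genes lay near *Asic1* on chromosome 15, which held 5 of the 16, *Asic1* and *Nr4a1* among them. The share of all tested genes on that chromosome was not counted. *Krt90*, a keratin gene that the paper names as a pseudogene, was lower in ASIC1a-/- hypothalamus. It had 2.47, 3.11, 2.29 and 3.55 CPM there against 5.90, 5.91, 5.13 and 6.60 CPM in WT, without overlap (-1.05 ± 0.14; edgeR adjusted p = 0.00103). It starts 1882 kb from the start of *Asic1*. *Cers5*, a ceramide synthase that starts 64.5 kb away, had 39.6, 41.6, 43.0 and 40.1 CPM in WT and 46.8, 49.4, 48.9 and 47.9 CPM in ASIC1a-/- libraries. Its difference was small beside that of the early genes, but larger than the spread (0.23 ± 0.04; edgeR adjusted p = 0.0103), and the call was lost without ASIC1a-/- replicate 3 or WT replicate 1. *Racgap1*, a GTPase-activating protein of cell division that starts 49.9 kb on the other side, had 16.2, 15.9, 17.3 and 18.3 CPM against 14.6, 14, 13.2 and 13.7 CPM (-0.29 ± 0.05; edgeR adjusted p = 0.0325). Its call was lost without ASIC1a-/- replicate 2, 3 or 4 or WT replicate 3 or 4.

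Of the 46 genes tested within 1 Mb of the start of *Asic1*, 3 were called, 1 higher (*Cers5*) and 2 lower (*Racgap1* and the targeted gene *Asic1* itself). Of all genes tested, 0.0837% were called higher and 0.0193% lower. The median log2 fold change of the 46 was -0.01. *Nr4a1* lies 1584 kb away. The part of the position near *Asic1* in these differences was not tested. In the ceramide and sphingolipid list *Cers5* was the only one of 25 members called, and *Cerk*, ceramide kinase, had 75.1 ± 1.11 CPM in WT and 79.1 ± 0.691 CPM in ASIC1a-/- libraries (SD, n = 4; 0.08 ± 0.03, SE).

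The 15 genes next in order of p, with edgeR adjusted p between 0.0557 and 0.183, held 12 genes that were above WT and 3 that were below. Beside *Egr3*, *Trib1*, *Tsc22d3*, *Sik1*, *Plk2*, *Spry4*, *Gem*, *Nfkbia*, *Tiparp* and *Dusp4* they included the arrestin family gene *Arrdc3* (0.23 ± 0.05) and *Plekhf1* (0.60 ± 0.13). The 3 below WT were the kinase *Dyrk1a* (-0.12 ± 0.03), the long non-coding RNA AC102496.1 and the hormone *Prl*. AC102496.1 had 6.39, 6.96, 7.34 and 9.34 CPM in WT and 3.21, 2.26, 3.96 and 3.08 CPM in ASIC1a-/- libraries (-1.26 ± 0.24; edgeR adjusted p = 0.0561). All 15 had groups that did not overlap, which the order by p favours.

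Of the 18 genes in the study's heat map, a list chosen on these same samples and so no independent evidence, 17 were found by symbol: 13 were called higher, 2 lower, and *Egr3* and *Prl* did not pass. The 2 lower were *Krt90* and the targeted gene *Asic1*, which the paper's text does not name among its lower genes from the sequencing. Prolactin, a hormone of the anterior pituitary, had 8.98, 1.65, 1.33 and 1.64 CPM in WT and 0.653, 0.170, 0.0236 and 0.111 CPM in ASIC1a-/- libraries. Growth hormone (*Gh*) had 26.7, 10.8, 4.31 and 9.73 CPM against 3.37, 3.05, 0.306 and 1.11 CPM. Both groups of values lay below WT without overlap, and neither passed the test (edgeR adjusted p = 0.0984 for *Prl* and 0.304 for *Gh*). The summed markers of the anterior pituitary, *Prl* and *Gh* among them, ran from 6.92 to 43.4 CPM in WT and from 2.29 to 12.5 CPM in ASIC1a-/- libraries. The sum is therefore not separate evidence beside these 2 genes. Of its 11 markers, 5 passed the filter and all 5 were below 0 (median log2 fold change -1.72), but only *Prl* and *Gh* had groups that did not overlap. At ZT1, in other mice, the direction was the opposite: 4 of the 5 were above 0, with a median of 2.35. The part of attached pituitary tissue in the result was not tested. In the wider list of prolactin and growth hormone signalling, 0 of 20 tested members were called by edgeR or DESeq2 (2 at an unadjusted p under 0.05, *Prl* and *Gh*), 12 were below 0 and the median was -0.02. Another low gene was *Mcm6*, a DNA replication helicase subunit, with 11.2, 7.07, 6.86 and 6.88 CPM in WT and 6.20, 6.47, 1.67 and 1.91 CPM in ASIC1a-/- libraries (edgeR adjusted p = 1).

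The hypothalamic label was checked against markers fixed by cell type and region. The 16 hypothalamic markers, *Avp*, *Oxt* and *Trh* among them, were measured in all 8 libraries and summed to between 1296 and 1706 CPM in WT and between 1494 and 1685 CPM in ASIC1a-/- libraries, with WT replicate 4 the lowest. Single members varied more than the sum: 5 of the 16 had an unadjusted p under 0.05, though 0 were called by edgeR. Of the 16, 7 were above 0 and 9 below, with a median log2 fold change of -0.03 and a range from -0.60 to 0.13. Markers of neurons summed to 5355 ± 132 CPM in WT and 5379 ± 231 CPM in ASIC1a-/- libraries (SD, n = 4), and those of astrocytes to 4651 ± 227 and 4614 ± 50.3 CPM. In bulk tissue, fewer cells of a type cannot be told apart from less RNA per cell. Across the 17 marker lists, 160 genes were tested and 0 were called by edgeR or DESeq2 at an adjusted p under 0.05 (14 at an unadjusted p under 0.05). The list medians of thalamus, striatum, cortex and hippocampus, astrocytes, tanycytes and ependyma, oligodendrocyte precursors, microglia, choroid plexus and blood lay between -0.05 and 0.05.

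Some lists leaned one way. All 11 endothelial markers were above 0 in ASIC1a-/- hypothalamus with a median log2 fold change of 0.15, and their sum was 280 to 290 CPM in WT and 287 to 332 CPM in ASIC1a-/- libraries. The receptor *Flt1* had 50.4, 48.4, 45.8 and 49.9 CPM against 53.3, 58.9, 54.4 and 52.9 CPM (0.17 ± 0.06), and *Tek* had a log2 fold change of 0.26 ± 0.10. All 12 oligodendrocyte markers were above 0 with a median of 0.07, and all 7 markers of midbrain dopamine neurons with a median of 0.27. The dopamine sums overlapped, with 166 to 319 CPM in WT and 212 to 288 CPM in ASIC1a-/- libraries. At ZT1, in other mice, all 12 and all 7 were above 0 too, with medians of 0.11 and 1.18. Of the 11 endothelial markers, 6 were above 0 at ZT1.

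All 10 meningeal markers were above 0, with a median of 0.56. At ZT1 all 10 were above 0 too, with a median of 1.42. At ZT13, 1 library stood apart: their sum was 217 CPM in ASIC1a-/- replicate 2 and 51.0 to 55.8 CPM in the other 3, against 53.4 to 80.3 CPM in WT. The same library held 17.6 CPM of *Ogn* and 8.53 CPM of *Slc22a6*, both of fibroblasts of the meninges, and 66.9 CPM of *Vtn*, a pericyte gene. Its summed mural cell markers were 190 CPM against 143 to 148 CPM in the other ASIC1a-/- libraries. Without this library 13 genes were higher and 4 lower, without WT replicate 4 18 were higher and 2 lower, and without both 12 were higher and 4 lower. Of the 16 genes named above, 14 were still called without ASIC1a-/- replicate 2 and 13 without both, which lost *Racgap1*, *Cers5* and *1700016P03Rik*.

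**Figure D4:**
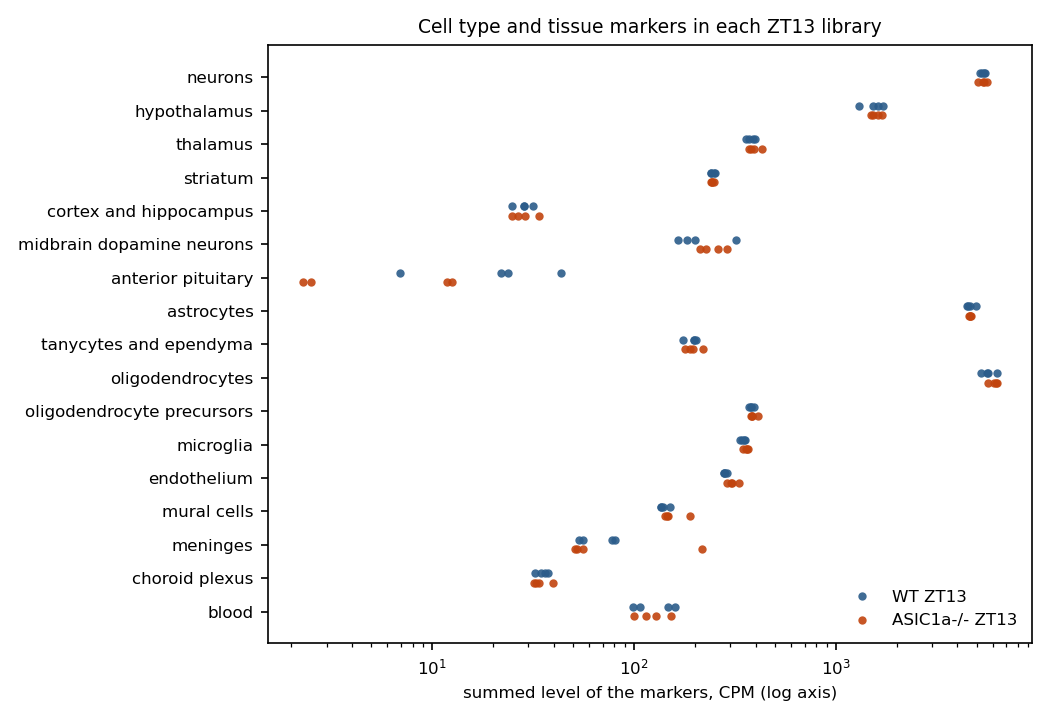
Summed CPM (horizontal log axis) of the markers of each cell type or tissue (rows) in the 4 WT (blue) and 4 ASIC1a-/- (orange) libraries at ZT13. The groups overlap in most rows; 1 ASIC1a-/- library stands at 217 CPM for meninges, and the anterior pituitary markers are the most spread.

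The genotype difference was then set beside that at ZT1, in other mice. At ZT1, 2 genes were called (0.0129%), and the median log2 fold change of the 51 early response genes was 0.04. Without a correction for the number of tests, more genes differed at ZT1 than at ZT13. At a p under 0.05 there were 1071 at ZT1, against 329 higher and 265 lower at ZT13. The interaction of genotype and time, tested in the same fit, was called for 3 genes (0.0193%), *Egr1*, *Nr4a1* and *Ddit4*, all with a larger genotype difference at ZT13. The count was 7 without WT replicate 4 and 6 without ASIC1a-/- replicate 2 of ZT13, and 13 by DESeq2. *Egr1* had 20.3 ± 1.67 CPM in WT and 23.0 ± 1.59 CPM in ASIC1a-/- libraries at ZT1 (SD, n = 4). The log2 fold change there was 0.18 ± 0.08, so that the difference at ZT13 exceeded it by 1.09 ± 0.11 (SE; edgeR adjusted p = 0.00013). For *Nr4a1* the excess was 1.02 ± 0.12 (edgeR adjusted p = 0.00141), and for *Ddit4*, whose ZT1 fold change was -0.06 ± 0.04, it was 0.45 ± 0.06 (edgeR adjusted p = 0.00173).

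For the other higher genes the difference between the times was not called: it was 2.38 ± 0.43 for *Egr2* (edgeR adjusted p = 0.0867), 1.54 ± 0.31 for *Fosb*, 1.03 ± 0.20 for *Fos* and 0.59 ± 0.11 for *Btg2* (edgeR adjusted p = 0.0867). *Cers5* had nearly equal differences at both times, 0.23 and 0.22. *Krt90* had log2 fold changes of -1.05 and -1.17, and *Asic1* of -0.48 and -0.62. For these 3 genes the interaction was not called (edgeR adjusted p = 0.99 for *Asic1* and 0.999 for the other two).

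**Figure D5:**
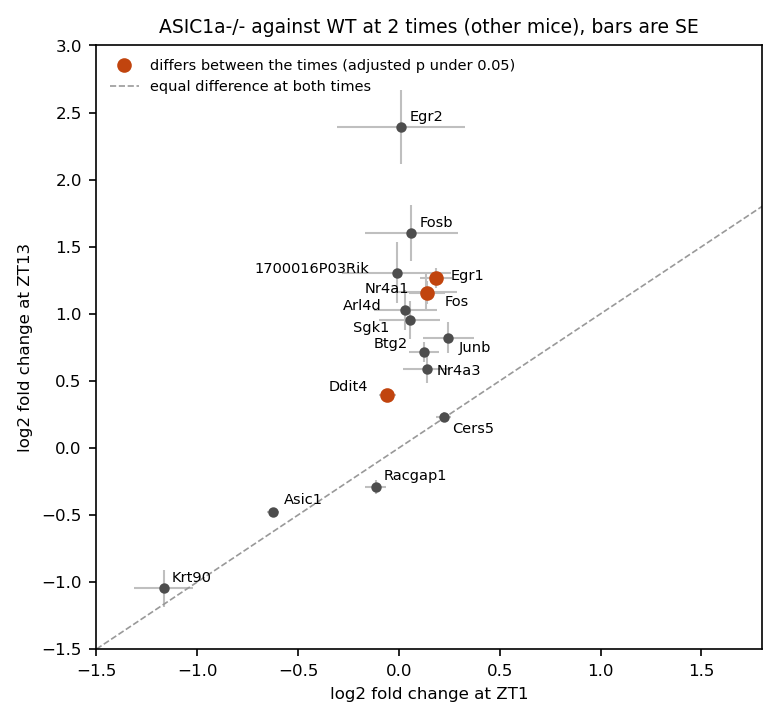
Log2 fold change between ASIC1a-/- and WT at ZT1 (horizontal axis) and at ZT13 (vertical axis) of the 16 genes called at ZT13, with SE; the times come from different mice. The 3 genes whose difference was called as unequal between the times are orange; *Cers5*, *Krt90* and *Asic1* lie near the dashed line of equal difference.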

How the data were processed

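Per the labels and methods, RNA of whole hypothalami was sequenced as 100-bp paired reads. Tools in the submitters' processing notes are STAR 2.5.3a, HTSeq 0.9.1, cutadapt 1.8 and RSEM 1.2.31, with the builds GRCm38 and mm9. The labels and the methods name different extraction and library kits. The authors deposited RSEM expected counts per Ensembl gene, not normalized and 4.85% of them not whole, together with TPM values, which the authors' RSEM run scales by effective transcript length and library total, and the RSEM transcript length (in bases, no ratio or log). RSEM divides reads shared between genes, so near-identical copies are uncertain. Expected counts, rounded, were tested with edgeR 4.0.16 (R 4.3.3) after TMM scaling in 1 fit of all 16 libraries with 4 group means (12 residual degrees of freedom, biological coefficient of variation 6.05%). The filter was CPM above 1 in at least 1 ZT13 library, and Benjamini-Hochberg adjustment ran over all 15539 genes. The methods name no test, and their HTSeq counts were not used here. Standard errors come from the F statistic. Symbols and positions are those of GENCODE M21 (GRCm38), which named 55141 of the 55401 identifiers.

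Library totals were 34888522 to 42326259 expected counts at ZT13, so that counting error weighs most on genes near 1 CPM. Chi-square per degree of freedom between 2 libraries of a group was 4.08 to 9.28, above counting error. The genes named were all those called, the study's heat map, the members of each list that ranked first to the fourth by p, the 15 next genes, the 5 highest and 5 lowest fold changes without overlap, all members of the AP-1, EGR and NR4A, acid-sensing channel and cold-inducible lists, and called interactions. The members and lists were chosen with earlier results of these data known. Alternatives were other filters, DESeq2 1.42.0 and its size factors, library size only, limma-voom (limma 3.58.1), log2(TPM + 1) and log2(TPM + 0.1), unrounded counts, other thresholds, a replicate block, only the 8 ZT13 libraries, each ZT13 library left out, and, added after the data were seen, 2 libraries left out together. The test was checked on simulated data. Figures were drawn with matplotlib 3.10.9.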

Additional observations from a re-analysis of the deposited data

Results flagged for a closer look

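In 15 of 178 groups of 4 libraries (genes and marker sums named in the text), 1 library lay far from the other 3 relative to the whole range. Chance gives about 1 in 20 for separate groups. These groups were chosen with results known and share genes, so their count cannot be set against that rate. *Ogn* and *Slc22a6* are part of the meningeal sum and *Vtn* of the mural cell sum. ASIC1a-/- replicate 2 at ZT13 held 8 of the 15. Its summed meningeal markers were 217 CPM (51.0 to 55.8 CPM in the other 3), its mural cell markers 190 CPM (143 to 148), *Ogn* 17.6 CPM (1.70 to 2.36), *Slc22a6* 8.53 CPM (0.749 to 1.25), *Vtn* 66.9 CPM (34.1 to 37.4), *Atf3* 1.58 CPM (0.915 to 0.99) and *Jund* 28.2 CPM (23.3 to 24.1). In the same library *Arl4d* was low, at 4.52 CPM against 7.56 to 7.82 CPM. Whether meningeal tissue had a part in these values was not tested.

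WT replicate 1 was high for *Prl* (8.98 CPM, others 1.33 to 1.65), *Mcm6* (11.2 CPM, others 6.86 to 7.07) and *Tsc22d3* (105.3 CPM, others 96.6 to 97.6). WT replicate 3 was low in summed markers of tanycytes and ependyma (174 CPM, others 199 to 203), and WT replicate 4 was high for *Sik1* (25.5 CPM, others 19.5 to 20.4). ASIC1a-/- replicate 4 was high for *Tsc22d3* (119 CPM, others 112 to 113), and ASIC1a-/- replicate 3 was low for *Asic2* (64.6 CPM, others 68.0 to 68.1).

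The genotype difference was larger at ZT13 than at ZT1 by a test of the difference itself for *Egr1* (1.09 on the log2 scale), *Nr4a1* (1.02) and *Ddit4* (0.45).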

How the results depend on the processing

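With 13 genes higher, 3 lower, 3 interactions and 2 genes at ZT1 as reported, DESeq2 called 24, 6, 13 and 7. Without a filter on low counts 10 genes were lower, 17 had an interaction and 15 differed at ZT1. On log2(TPM + 1) and on log2(TPM + 0.1) 1 gene was lower and 1 differed at ZT1, and *Asic1* reversed, with log2 fold changes of 0.32 and 0.33, since TPM divides by the shorter transcript length. At an unadjusted p under 0.005, 51 genes were higher and 25 lower. Leaving out 1 ZT13 library gave 10 to 18 higher genes, 2 to 4 lower genes, 3 to 7 interactions (6 without ASIC1a-/- replicate 2 and 7 without WT replicate 4) and an *Asic1* length difference of -1267 to -1203 bases, for which 3 against 4 cannot reach 0.05 (exact permutation p = 0.0571). Of the 16 called genes, 12 kept their call in each of these 8 fits. Without both WT replicate 4 and ASIC1a-/- replicate 2, a setting chosen after the data were seen, 8 interactions were called.

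With the replicate number as a block, 11 genes were higher, 4 lower and 5 had an interaction. The deviations of libraries with the same number correlated between -0.07 and 0.23, over 0.1 in 2 of 4 pairs. Pairs of libraries with different numbers ran from -0.28 to 0.16. Whether libraries with the same number share more than the number was not tested. In all, 619 gene values were recomputed for the 16 called genes, the heat map and the 15 next genes: 554 kept direction and side of the threshold, 32 lost and 31 gained the call, and 2, those of *Asic1*, reversed. Depth limits the genes near 1 CPM, such as *Egr2* and *1700016P03Rik*. The sources used here give no batch.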
